A study of Mus musculus with 6 samples.

Results

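Phactr1, Vps8, Wdr7, Cnnm1, Rnf157, Slc35b4 and B630019K06Rik are 7 mouse genes whose read counts were lower in each of 3 libraries from miR-203 transgenic islets than in the wild-type libraries of the same count table. They were chosen by that pattern, from 47643 genes in the joined count tables, of which 29725 had a read in some library and 16072 had enough reads to be tested. All 7 were among those tested, and all 7 stood within the first 10 of the 8349 lower genes when these were ordered by the p-value of the transgenic against wild-type contrast. That contrast is therefore given for them as a description only, with no test.

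The data are bulk RNA-seq of pancreatic islets from mice labelled male, 10 weeks old and fasted for 12 h, carrying either no transgene (WT) or a transgene that makes miR-203 in beta cells only (TG). No other allele or agent is named for either group, and the promoter that drives the transgene is not given in the labels. WT 1, WT 2, TG 1 and TG 2 were counted in a first table, and WT 3 and TG 3 in a second. The labels do not say that the libraries of a group came from separate animals, so every p-value here rests on a spread among samples that could be technical. Islet RNA is a mixture of beta cells, other endocrine cells and adherent exocrine, vessel and stromal cells, so that fewer cells of one type and less RNA per cell cannot be told apart.

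The libraries held 20176456 to 27482339 counts, and a count of 3 corresponded to 0.104 to 0.162 CPM (a count relative to its library size, which was scaled by the trimmed mean of M-values). The row of Mir203, which holds the transgene's product, had 170, 164 and 150 counts in the TG libraries against 39, 0 and 0 in WT 1, WT 2 and WT 3. The library labelled WT 1 thus had reads of this gene that the other two WT libraries lacked. Ins2, which encodes insulin, took 14.3%, 15.5% and 8.57% of counts in WT and 2.47%, 13.7% and 3.04% in TG. Mafa, a transcription factor of mature beta cells, was read at 406, 487 and 675 CPM in WT 1 to WT 3, while TG 1 had 3.72 CPM, TG 2 249 CPM and TG 3 18.1 CPM. By these genes TG 2 lay nearer to WT than TG 1 and TG 3 did. WT 3 and TG 3, the libraries of the second table, carried 25145 and 27240 counts of Xist, the X-inactivation RNA of female cells, and at most 16 counts of 4 Y-linked genes, against at most 13 Xist counts and at least 5463 Y-linked counts in the first table, although all are labelled male.

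The 7 genes act in different processes of the cell. Phactr1 encodes an actin-binding regulator of protein phosphatase 1. Vps8 encodes a subunit of CORVET, the tethering complex that brings early endosomes together through Rab5, and Wdr7 encodes the beta subunit of rabconnectin-3, a partner of the proton pump (V-ATPase) that acidifies secretory granules, synaptic vesicles and endosomes. Cnnm1 belongs to the CNNM family of membrane proteins tied to magnesium transport, Rnf157 encodes a RING-type ubiquitin ligase, and Slc35b4 encodes a transporter that carries UDP-xylose and UDP-N-acetylglucosamine into the endoplasmic reticulum and Golgi. No role is given here for B630019K06Rik.

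A microRNA represses messages mainly by pairing its seed, bases 2 to 8 from its 5′ end, with the 3′ untranslated region (3′ UTR). The mature miR-203-3p of the mouse (RefSeq, GRCm38.p6, chr12:112130927-112130948, plus strand, 22 bases) is shown with its seed in capitals, because it is the molecule the transgene adds.
mmu-miR-203-3p: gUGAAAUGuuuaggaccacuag

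The longest annotated 3′ UTR of each gene (GENCODE M21, GRCm38) was searched on its sense strand for CATTTCA, the complement of the seed (a 7mer-m8 match), for CATTTCAA (8mer), and for the weaker ATTTCAA (7mer-A1) and ATTTCA (6mer). A shorter form inside a longer one was counted once, as the longer one. The matches found in Slc35b4, Cnnm1 and Rnf157 are printed with 10 bases on each side and the match in capitals, since they set the full seed match of Slc35b4 beside the partial ones of the other genes.
Slc35b4 7mer-m8, chr6:34158307-34158313, minus strand: gtctggccacCATTTCActttagctga
Slc35b4 7mer-m8, chr6:34157769-34157775, minus strand: ccaccacgcaCATTTCAcgttatttga
Cnnm1 7mer-A1, chr19:43496115-43496121, plus strand: ccaagggaaaATTTCAAagtcaagttt
Rnf157 6mer, chr11:116336695-116336700, minus strand: gctttacctaATTTCAtcccaccaga

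The Slc35b4 matches began 67 and 605 bases after the stop codon in a 3′ UTR of 5000 bases. The 3′ UTR of Wdr7, 2417 bases long, held the most matches. They comprised 1 8mer starting at base 867, 7mer-m8 matches at bases 1969 and 2012, and 6mers at bases 647 and 1511. Cnnm1 had only the 7mer-A1 at base 1077 of 2172, and Rnf157 only the 6mer at base 2006 of 2353. Phactr1, Vps8 and B630019K06Rik had none of the searched letters in 3′ UTRs of 3337, 741 and 1205 bases. A match is a string in the annotated message and not a measured binding site, and its absence from this window says nothing about the microRNA.

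**Figure D1:**
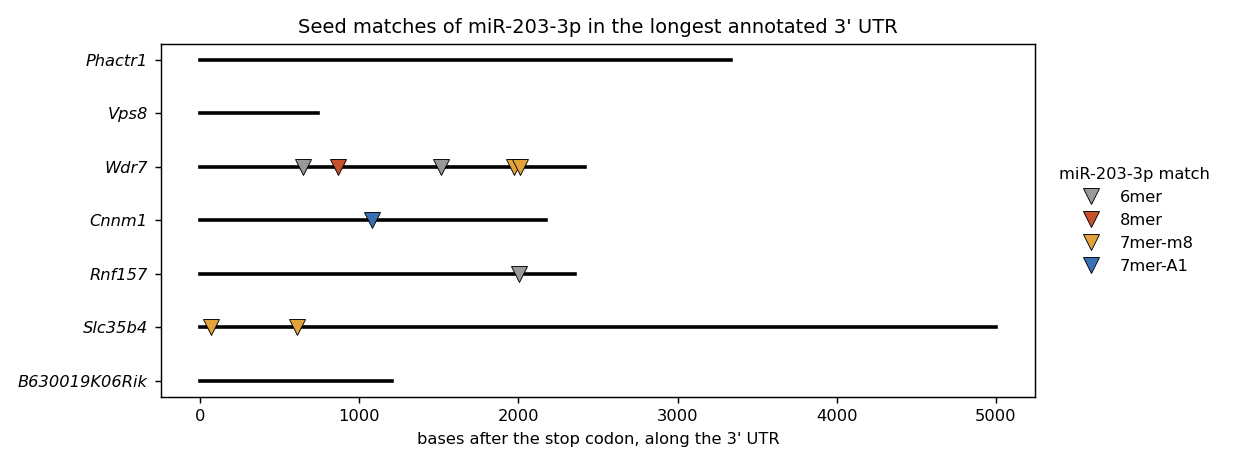
Positions of miR-203-3p seed matches (triangles, coloured by type) along the longest annotated 3′ UTR (black line) of each gene, in bases after the stop codon. Wdr7 carries 5 matches and Slc35b4 carries 2, while the lines of Phactr1, Vps8 and B630019K06Rik are bare.

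A match to the whole seed (7mer-m8 or 8mer) was thus present in 2 of the 7 genes (28.6%), against 2381 of 13840 tested genes with an annotated 3′ UTR (17.2%). At least 3 such matches, as in Wdr7, occurred in 117 of these genes (0.845%), and an 8mer in 696 (5.03%). Any of the searched strings occurred in 4 of the 7 genes and in 39.8% of all. The length of the 3′ UTR went with the number of matches. The median 3′ UTR was 2353 bases in the 7 genes and 1168 bases in tested protein-coding genes, and among the latter it was 708 bases in genes with no match but 5348 bases in those with 3 or more.

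Among tested protein-coding genes the classes differed little in median change. The median log2 fold change (TG over WT) was −0.01 in the 8317 genes with no match, −0.01 in the 1885 genes with 1 seed match, −0.04 in the 371 genes with 2, and −0.07 in the 117 genes with at least 3. The share of genes below the WT libraries of their table in every TG library was 13.2% without a match, 15.5% with 1, 17.8% with 2 and 16.2% with 3 or more. It was 19.0% among the 694 genes with an 8mer. By type of match, the log2 fold changes of the 7 genes were −0.63 and −0.74 for Wdr7 and Slc35b4 (whole seed), −1.48 for Cnnm1 (7mer-A1), −1.01 for Rnf157 (6mer), and −1.11, −0.93 and −0.89 for Phactr1, Vps8 and B630019K06Rik (none). These are the values that chose the genes, and no order is read from them. The share of these changes that goes through a seed match was not tested.

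Phactr1 (ENSMUSG00000054728, chr13:42680623-43138526, plus strand) had the highest CPM of the 7 genes in every library. Its normalised read counts were 195.5, 176.9 and 157.4 CPM in WT 1 to WT 3 and 67.5, 104.7 and 72.7 CPM in TG 1 to TG 3. The highest TG library lay well under the lowest WT library, and TG 2 was the highest of the TG libraries. The means were 177 ± 19.0 and 81.7 ± 20.2 CPM (SD, n = 3 each), and the fitted log2 fold change was −1.11 (SE 0.19). As a share of the WT level of the same table, TG 1 held 36.3%, TG 2 56.3% and TG 3 46.2%.

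Vps8 (ENSMUSG00000033653, chr16:21423118-21644680, plus strand) was steady across WT, with 67.8, 76.3 and 72.2 CPM. Its TG libraries stood at 33.9, 48.0 and 32.6 CPM. TG 1 and TG 3 held 47.1% and 45.1% of the WT level of their table, and TG 2, which was nearer to WT, held 66.6%. The means were 72.1 ± 4.25 and 38.2 ± 8.54 CPM (SD, n = 3 each), with a log2 fold change of −0.93 (SE 0.18).

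Wdr7 (ENSMUSG00000040560, chr18:63708695-63989760, plus strand) showed the smallest log2 fold change of the 7 genes. It was read at 84.1, 82.0 and 96.5 CPM in WT and at 58.0, 55.1 and 56.5 CPM in TG. The 3 TG libraries lay within 3 CPM of each other, and TG 2 did not stand apart from TG 1 and TG 3 here. The means were 87.5 ± 7.86 and 56.5 ± 1.48 CPM (SD, n = 3 each), and the log2 fold change was −0.63 (SE 0.12). The TG libraries held 69.9%, 66.3% and 58.5% of the WT level of their table.

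Cnnm1 (ENSMUSG00000025189, chr19:43440436-43497212, plus strand) showed the largest log2 fold change of the 7 genes. WT 1 had 10.6 CPM, WT 2 17.5 CPM and WT 3 27.8 CPM, and the TG libraries had 5.32, 5.91 and 7.97 CPM. The WT libraries differed among themselves by more CPM than the TG libraries did, and the lowest of them, WT 1, still lay above every TG library. The means were 18.6 ± 8.67 and 6.40 ± 1.39 CPM (SD, n = 3 each), with a log2 fold change of −1.48 (SE 0.25). TG 1, TG 2 and TG 3 held 37.9%, 42.2% and 28.7% of the WT level of their table.

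Rnf157 (ENSMUSG00000052949, chr11:116336353-116413032, minus strand) had the same spread among WT libraries, with 15.0, 18.2 and 33.4 CPM against 8.66, 9.68 and 13.4 CPM in TG. The separation was narrowest between WT 1 and TG 3, which were counted in different tables. The 95% exact Poisson interval of WT 1 was 13.2 to 16.8 CPM, which covers the value of TG 3, while that of TG 1 was 7.62 to 9.80 CPM. These intervals cover counting error only. The means were 22.2 ± 9.88 and 10.6 ± 2.52 CPM (SD, n = 3 each), and the log2 fold change was −1.01 (SE 0.18).

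Slc35b4 (ENSMUSG00000018999, chr6:34153380-34177111, minus strand) was read at 51.2, 64.8 and 72.3 CPM in WT and at 32.7, 36.3 and 44.2 CPM in TG. Its TG libraries held similar shares of the WT level of their own table, namely 56.3%, 62.6% and 61.2%. The means were 62.8 ± 10.7 and 37.7 ± 5.90 CPM (SD, n = 3 each), with a log2 fold change of −0.74 (SE 0.14).

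B630019K06Rik (ENSMUSG00000052364, chrX:8892382-8894964, plus strand) is the only X-linked gene of the 7. It had 22.4, 27.2 and 29.1 CPM in WT and 12.4, 16.1 and 13.9 CPM in TG. The groups did not overlap, and WT 3, from the library rich in Xist, was close to WT 2. The means were 26.2 ± 3.44 and 14.1 ± 1.86 CPM (SD, n = 3 each), and the log2 fold change was −0.89 (SE 0.18).

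**Figure D2:**
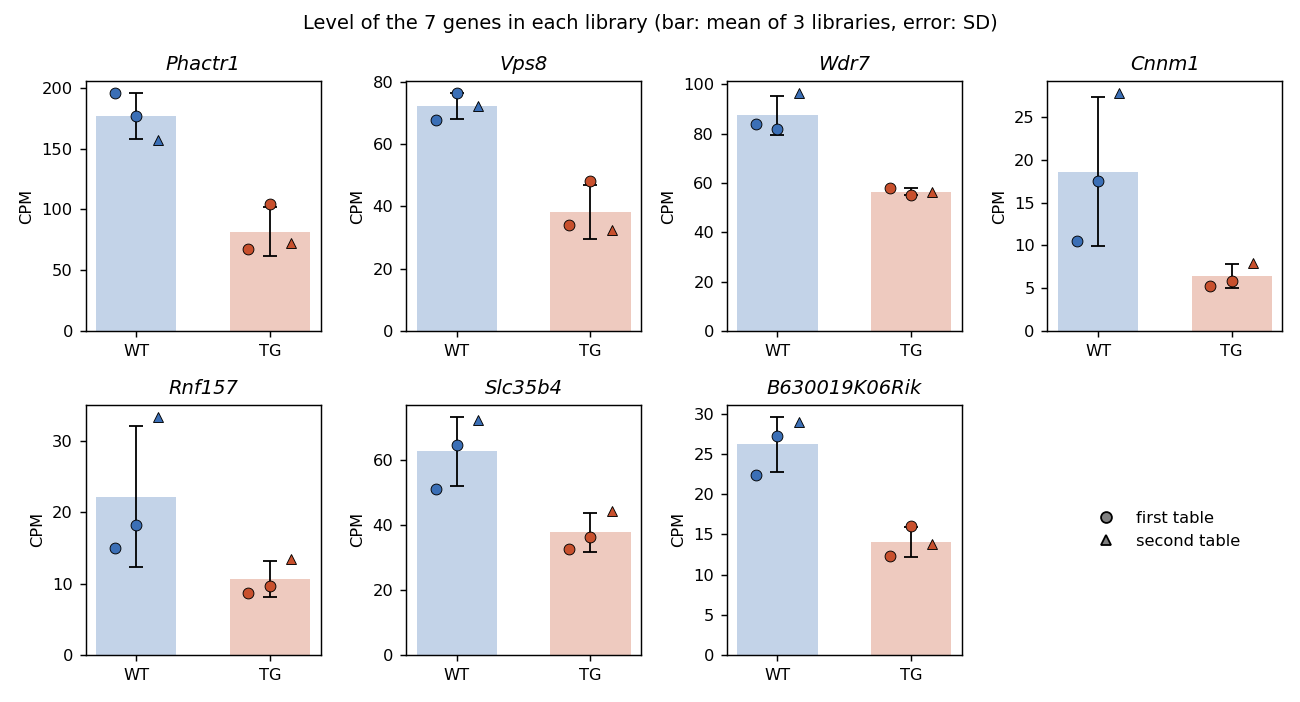
Level of each gene in CPM (y axes from 0) in the 3 WT and 3 TG libraries. Bars are means, error bars SD, circles libraries of the first table and triangles those of the second. In every panel the 3 TG points lie below the 3 WT points.

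In all 7 genes every TG library lay below every WT library of both tables. The choice of the genes nearly fixes this count. Among all genes tested, 1032 (6.42%) had that pattern, and 2156 (13.4%) lay below the WT libraries of their own table in every TG library. The mirror pattern, above in every TG library, held for 2090 genes (13.0%). The median deviation of the 7 genes from the WT mean of the table was −0.99 in TG 1, −0.66 in TG 2 and −1.11 in TG 3 on the log2 scale, while the median over all genes tested was −0.01 in each of the 3 libraries. TG 2 was closest to WT in 6 of the 7 genes, Wdr7 being the exception. TG 3 was the lowest relative to its WT library in 5 genes, and TG 1 in the other two, Phactr1 and Slc35b4. Without WT 1, the library with Mir203 reads, the log2 fold changes ran from −1.69 (Cnnm1) to −0.62 (Wdr7). Without TG 2 they ran from −1.58 (Cnnm1) to −0.63 (Wdr7).

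No gene of the 7 lay close to the limit of the pattern, a gap of 0. That limit alone did not pick them, since 2156 genes (13.4%) lay within it. By width of the gap they ranked from 20 (Cnnm1) to 122 (B630019K06Rik), whereas by p-value they stood within the first 10. The gap is the smallest distance, over both tables, between the lowest WT and the highest TG library in log2 CPM, and it was 0.48 for B630019K06Rik and 0.50 for Slc35b4, the narrowest of the 7, and 0.83 for Cnnm1, the widest. The gene with the gap next below 0 was Smad2, a transducer of TGF-beta signals, at 31.8, 34.7 and 33.3 CPM in WT and 31.8, 31.8 and 25.03 CPM in TG. Psme4, which encodes a proteasome activator, followed at 164, 138 and 93.2 CPM against 121, 138 and 80.5 CPM. In both genes TG 2 equalled a WT library of the first table to within rounding, WT 1 for Smad2 and WT 2 for Psme4.

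To compare levels between genes, the deposited FPKM values, which divide by transcript length, were used. The order of the mean level was the same in WT and in TG, from Phactr1 through Wdr7, B630019K06Rik, Vps8, Slc35b4 and Cnnm1 to Rnf157. In WT the means ran from 18.3 FPKM for Phactr1 and 12.4 FPKM for Wdr7 down to 3.79 FPKM for Cnnm1 and 2.39 FPKM for Rnf157. In TG they ran from 8.46 and 7.96 FPKM down to 1.29 and 1.13 FPKM for the same 4 genes. Among WT libraries only Phactr1 lay clear of its neighbour in this order, and every other neighbouring pair overlapped. Among TG libraries the pairs that did not overlap were Wdr7 with B630019K06Rik and Slc35b4 with Cnnm1. Wdr7 was above Phactr1 in TG 1 (7.79 against 6.71 FPKM) and in TG 3 (8.67 against 8.26 FPKM). The FPKM tables were normalised separately, so each mean spans 2 scales.

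The rule compared libraries only within a table, so it did not use the difference between tables. That difference was tested in the same fit whose genotype p-values put all 7 within the first 10 lower genes. Its p-values share the residual spread of that fit. They are therefore not independent of the choice, nor fully comparable with those of all genes tested. Rnf157 was higher in the second table by 0.79 on the log2 scale (SE 0.19, edgeR quasi-likelihood adjusted p = 0.0470), with both WT 3 and TG 3 above the other libraries of their genotype. It was the only one of the 7 genes to pass in edgeR, against 5.68% of all genes tested that passed as higher in the second table and 3.85% as lower. Cnnm1 stood 0.76 higher (SE 0.25, edgeR adjusted p = 0.0948) and passed in DESeq2 (adjusted p = 0.0386). The difference was 0.34 for Slc35b4 (SE 0.15, edgeR adjusted p = 0.169) and −0.24 for Phactr1 (SE 0.20, adjusted p = 0.438). Vps8, Wdr7 and B630019K06Rik had adjusted p-values of 0.594 to 0.748. The table cannot be told apart from what moves with it. Xist and Y-linked counts separate the tables completely, and the summed CPM of 18 acinar genes was 3844 to 8192 in the first table and 204 to 368 in the second. With the acinar level as a covariate, none of the 7 passed (edgeR adjusted p = 0.9999), although the fitted difference was no smaller for Rnf157 (0.86) and larger for Cnnm1 (1.796), Slc35b4 (1.27) and B630019K06Rik (0.57). Since the acinar level also separates the tables, that fit can hardly tell the acinar level from the table, and nothing is concluded from it. With single libraries left out Rnf157 passed only without TG 2 (adjusted p = 0.0192), and the adjusted p ranged up to 0.372 without WT 3.

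Relatives and partners of the 7 genes were not used to choose them, and 134 such genes in 7 lists were tested in the same fit. The lists were, however, drawn up with earlier results of these data known, so they are not fully independent of these values. No gene of the lists passed in edgeR (smallest adjusted p = 0.199), as no gene of the whole table did (0% of 16072). At an unadjusted p under 0.05 there were 10 lower (7.46%) and 6 higher (4.48%) list genes, against 4.81% and 9.32% of all genes tested. By direction alone, 31 of the 134 (23.1%) lay below the WT libraries in every TG library, against 13.4% of all genes. That share, like those of the single lists below, was not matched for level. Genes below in every TG library had a median WT level of 6.53 FPKM, against 4.45 FPKM in all genes tested. The part of level in these shares was not tested. DESeq2 called 1 list gene lower and 3 higher, against 0.846% and 3.83% of all genes, and limma-voom called none. Without TG 2, edgeR called 7 lower and 9 higher, against 4.39% and 8.82% of all genes. Of the fits with 1 library left out, that one called the most genes (2188).

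The paralogs of Phactr1 had higher means in TG, and none passed. Phactr4, which also binds protein phosphatase 1 and actin, had 30.2 ± 6.34 CPM in WT and 39.4 ± 9.75 CPM in TG (SD, n = 3 each), a log2 difference of 0.40 (SE 0.23, edgeR adjusted p = 0.469). Phactr2 differed by 0.42 (SE 0.30, adjusted p = 0.552), and Phactr3 by 0.50 (SE 0.22, adjusted p = 0.370). In Phactr2 and Phactr4, TG 2 lay below the WT mean while TG 1 and TG 3 lay above it. With 1 library left out, the difference ranged from 0.11 (without WT 3) to 0.70 (without TG 2) for Phactr2, and from 0.21 to 0.63 for Phactr4 without the same libraries. Of the 17 phosphatase 1, actin and serum response factor genes of this list, 14 had values above WT and 3 below, with a median log2 fold change of 0.23, against −0.01 for all genes. Tpm1 (tropomyosin) stood at 76.9 ± 15.2 CPM in WT and 115 ± 29.7 CPM in TG (log2 difference 0.59, SE 0.21, edgeR adjusted p = 0.286). Tpm1 and Phactr4 passed as higher in edgeR without TG 2, as did 8.82% of all genes.

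The endosomal partners of Vps8 lay mostly on its side. Their steps were far smaller, which the choice of Vps8 by its fall nearly fixes. Of 18 genes of CORVET, the related HOPS complex and early endosomes, 17 were below WT in the fit, as were 8349 of 16072 genes tested. The median log2 fold change of the 18 was −0.18, and 6 were below in every TG library, against 13.4% of all genes. None of the 18 passed. Tgfbrap1, the other subunit found only in CORVET, had 65.8 ± 6.22 CPM in WT and 58.8 ± 9.47 CPM in TG (log2 difference −0.16, SE 0.14, edgeR adjusted p = 0.623). Among the subunits common to both complexes, the difference was −0.41 for Vps18 (SE 0.17, adjusted p = 0.353), −0.27 for Vps11 (adjusted p = 0.406), −0.20 for Vps33a (adjusted p = 0.498) and −0.19 for Vps16 (adjusted p = 0.588). The HOPS subunits Vps39 and Vps41 differed by −0.29 and −0.11 (edgeR adjusted p = 0.389 and 0.727). Rab7, the small GTPase of late endosomes, averaged 333 CPM in WT and 264 CPM in TG (adjusted p = 0.368).

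Wdr7 works with the large rabconnectin-3 alpha proteins. Their genes lay nearer to WT, which the choice of Wdr7 by its fall nearly fixes. Dmxl2 had 141 ± 20.4 CPM in WT and 132 ± 11.6 CPM in TG (log2 difference −0.09, SE 0.13, edgeR adjusted p = 0.791). Its paralog Dmxl1 had 89.7 ± 28.3 and 86.1 ± 25.7 CPM (log2 difference −0.05, SE 0.14, adjusted p = 0.906), which turned to 0.03 when libraries were scaled by total count alone. Of 26 rabconnectin-3 and V-ATPase genes, 21 were below WT and 5 above, with a median of −0.19. Of these 26, 10 were below in every TG library, against 13.4% of all genes. Rogdi, which encodes a protein of the same assembly, was read at 59.6, 64.2 and 135 CPM in WT and at 41.0, 47.0 and 108 CPM in TG. Within each table TG lay below WT, although the tables were far apart (log2 difference −0.44, SE 0.13, edgeR adjusted p = 0.245). The membrane subunit gene Atp6v0a2 stood at 69.5 ± 6.25 and 52.5 ± 4.33 CPM (adjusted p = 0.283), and Atp6v0e went the other way with 178 and 241 CPM (adjusted p = 0.263). Without TG 2, edgeR called 4 pump genes as lower, namely Atp6v1a, Atp6v1d, Atp6v0b and Atp6v0c, against 4.39% of all genes.

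The other CNNM genes lay nearer to WT than Cnnm1, which the choice of Cnnm1 by its fall nearly fixes. Cnnm2 had means of 34.0 CPM in WT and 34.1 CPM in TG (log2 difference 0.02, SE 0.13, edgeR adjusted p = 0.968), and Cnnm4 had 11.3 and 11.5 CPM (0.02, SE 0.20, adjusted p = 0.972). Cnnm3 had 22.4 and 27.5 CPM (SE 0.18, adjusted p = 0.533). Of 20 CNNM and magnesium genes, 11 were above WT and 9 below, with a median of 0.02. Ptp4a1, a phosphatase that binds CNNM proteins, had 38.4 ± 3.49 CPM in WT and 28.9 ± 9.33 CPM in TG (log2 difference −0.46, SE 0.18, edgeR adjusted p = 0.334).

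Mgrn1, the closest relative of Rnf157 and a ligase that acts on membrane receptors, had 98.4 ± 21.2 CPM in WT and 96.2 ± 24.96 CPM in TG (log2 difference −0.04, SE 0.14, edgeR adjusted p = 0.925). It turned to 0.05 with total-count scaling. Of the 9 genes listed with this ligase pair, 6 were below WT and 3 above, with a median of −0.08. Atrn, which encodes attractin, a membrane protein of the Mgrn1 pathway, had 67.7 CPM in WT and 54.7 CPM in TG (log2 difference −0.31, SE 0.14, adjusted p = 0.368).

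The SLC35B relatives of Slc35b4 likewise stood near WT. Slc35b2, which carries the sulphate donor PAPS into the Golgi, had 71.0 ± 7.46 CPM in WT and 71.0 ± 7.22 CPM in TG (SD, n = 3 each, edgeR adjusted p = 0.996), with no stable sign across scalings. Slc35b1 and Slc35b3 differed by 0.05 and 0.18 (SE 0.18 each, edgeR adjusted p = 0.921 and 0.690). Of 23 SLC35 transporters, 10 were above and 13 below. Slc35a2, the UDP-galactose transporter, had 39.9 ± 2.0 and 30.1 ± 3.35 CPM (log2 difference −0.41, SE 0.14, adjusted p = 0.274). The largest difference of any list gene was in Slc35f4, with 1.40, 0.484 and 0.394 CPM in WT and 17.3, 5.04 and 26.4 CPM in TG (log2 difference 4.33, edgeR adjusted p = 0.199, DESeq2 adjusted p = 4.5e-08). All 3 TG libraries lay above all WT libraries, and TG 2 was the lowest of them. Without TG 2, edgeR called Slc35f4, Slc35f3 and Slc35e3 higher in this list, against 8.82% of all genes.

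Of 21 enzymes that make or use the sugars Slc35b4 carries, 11 were above WT and 10 below. Of the 21, 7 were below in every TG library, against 13.4% of all genes. Xylt1, which puts the first xylose on proteoglycans, had 20.7 ± 7.06 CPM in WT and 13.3 ± 5.71 CPM in TG (log2 difference −0.68, SE 0.18, edgeR adjusted p = 0.222). It was the only list gene that DESeq2 called lower (adjusted p = 0.0406). Gnpda1, which turns glucosamine 6-phosphate back towards glycolysis, had 70.7 ± 10.4 and 36.7 ± 14.9 CPM (log2 difference −0.94, SE 0.30, edgeR adjusted p = 0.252). Large, whose product adds xylose and glucuronic acid to dystroglycan, had 4.27 CPM in WT and 12.4 CPM in TG (log2 difference 1.51, edgeR adjusted p = 0.246, DESeq2 adjusted p = 0.0233). Its TG 2 library, at 4.80 CPM, was near WT, and the difference was 0.93 without TG 1 and 1.92 without TG 2. Without TG 2, edgeR called Xylt1, Gnpda1 and Ext1 lower in this list, against 4.39% of all genes. It called Large, Mgat3, Mgat5 and Gfpt2 higher, against 8.82% of all genes.

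**Figure D3:**
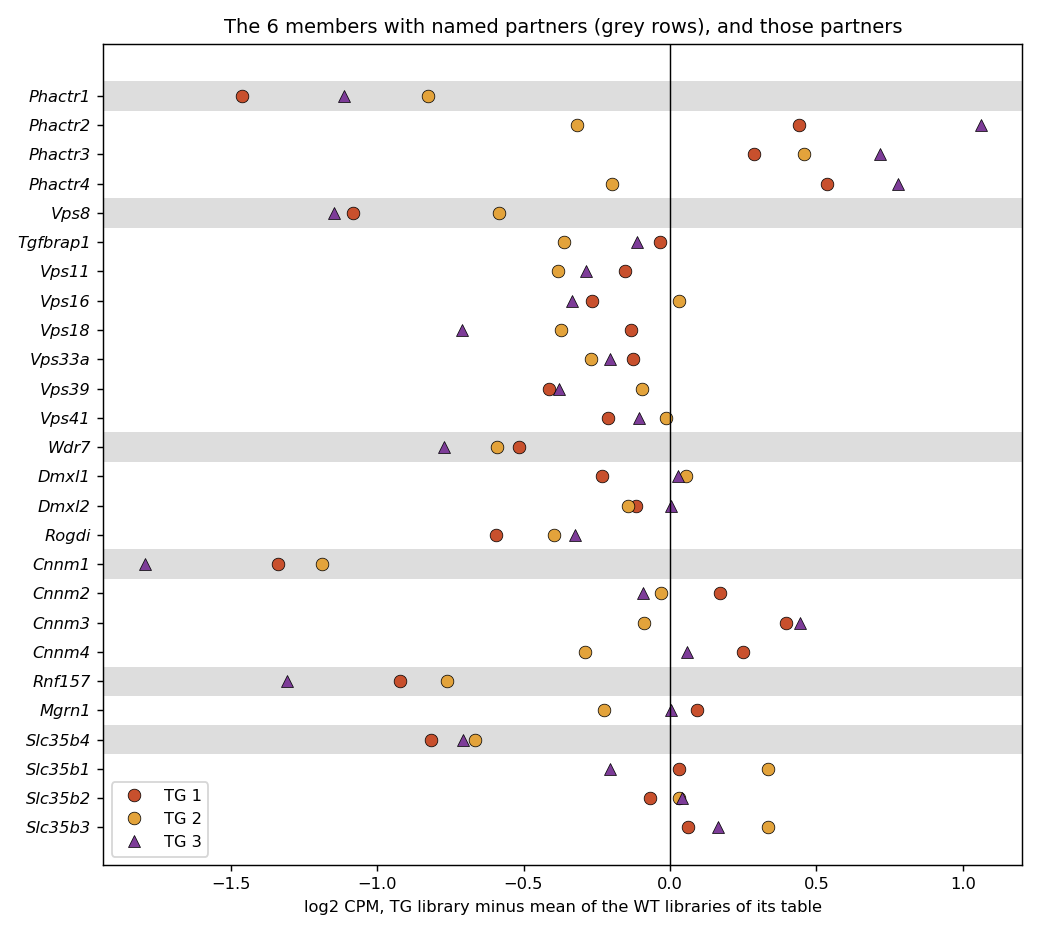
Log2 CPM of each TG library minus the mean of the WT libraries of its table (x axis, 0 is the WT level) for 6 of the 7 genes (grey rows) and their named relatives and partners (white rows); circles are the first table and triangles the second. The grey rows, chosen for their fall, lie at −0.52 or lower in every TG library, while Dmxl2, Cnnm2, Mgrn1 and Slc35b2 lie near 0.

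Markers of beta cells moved with the 7 genes. Of 18 beta-cell genes, 15 were below WT in the fit, as were 8349 of 16072 genes tested. Of the 18, 10 were below in every TG library, against 13.4% of all genes. None passed in edgeR. DESeq2 called 5 lower, against 0.846% of all genes, and edgeR without TG 2 called 11 lower, against 4.39%. Ins2 and Mafa, by which TG 2 was set apart above, belong to this list. The count without TG 2 is therefore partly fixed by leaving that library out, and nothing is concluded from it. The median deviation of the beta-cell list was −1.54 in TG 1, −0.19 in TG 2 and −0.82 in TG 3, against −0.99, −0.66 and −1.11 for the 7 genes. The values of the 7 genes here are those that chose them. The beta-cell genes differed widely among themselves in TG 2, from −0.87 for Slc2a2, the glucose transporter, −0.83 for Mafa, −0.80 for Ucn3 and −0.69 for Pdx1, a transcription factor of beta cells, to 0.33 for Iapp, the granule peptide amylin. The summed CPM of the beta-cell list was 241219 and 233208 in WT 1 and WT 2 against 57575 and 226552 in TG 1 and TG 2, and 118996 in WT 3 against 56017 in TG 3. Within each table the TG sums were thus the lower ones. Hormone genes made up most of these sums, with 156245 CPM for Ins2, 54651 for Iapp and 23753 for Ins1 in WT 1.

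Markers of other cell types stood higher in TG for several lists, though not in every TG library. All 11 tested duct-cell genes were above WT in the fit, and 7 of them were above in every TG library, against 13.0% of all genes. The 12 duct-cell genes in the files summed to 1201 to 1708 CPM in WT and 2303 to 2899 CPM in TG, with no overlap. Of 10 alpha-cell genes 9 were above WT, with summed CPM of 19317 to 27836 in WT and 23525 to 49142 in TG. In the second table the alpha-cell sum was lower in TG 3 (23525 CPM) than in WT 3 (25902 CPM). Gcg, the glucagon gene, made up most of it, with 17345.5 of 19317 CPM in WT 1. All 6 delta and PP cell genes were above WT, with 8368 to 9578 CPM in WT and 13237 to 36371 CPM in TG, most of it from Sst, Ppy and Pyy. The 12 stellate and fibroblast genes summed to 83.2 to 161 CPM in WT and 97.5 to 311 CPM in TG. Their median deviation was 2.26 in TG 1, −0.09 in TG 2 and 1.26 in TG 3. The 8 Schwann-cell genes in the files (6 of them tested) summed to 13.5 to 23.5 CPM in WT and 18.5 to 36.2 CPM in TG. The 12 endothelial genes summed to 310 to 477 CPM in WT and 354 to 643 CPM in TG, and the 12 macrophage and lymphocyte genes in the files (8 tested) to 34.1 to 106 CPM and 30.5 to 51.2 CPM. The acinar list overlapped widely, with 204 to 8192 CPM in WT and 368 to 5818 CPM in TG. Of the fat-cell and red-blood-cell lists only 1 and 3 genes had enough reads to be tested, and the fat-cell hormone gene Adipoq was at or near 0 in every library. The part of this shift in cell-type message in the values of the 7 genes was not tested.

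**Figure D4:**
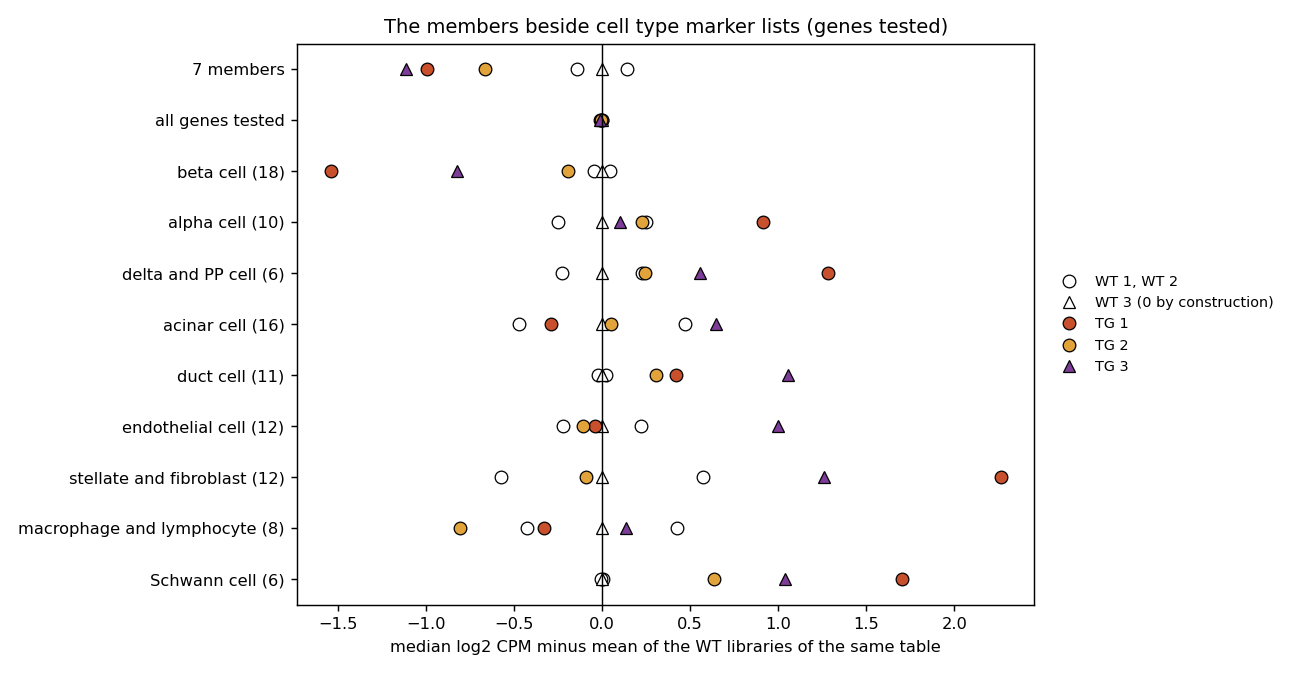
Median log2 CPM of the 7 genes, of all genes tested and of each marker list (number of genes tested in brackets) in each library, minus the mean of the WT libraries of the same table. The 7 genes, chosen for lying below 0 in TG, are at −0.99, −0.66 and −1.11 in TG 1 to TG 3, and the beta-cell list is at −1.54, −0.19 and −0.82.

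Several of the 7 are long genes. Phactr1 spans 457904 bases (percentile 98.7 among 13993 tested protein-coding genes), Wdr7 281066 bases (96.7) and Vps8 221563 bases (95.2). The median span was 76680 bases in the 7 genes and 24028 bases in tested protein-coding genes. B630019K06Rik is the exception, with a single exon of 2583 bases (percentile 4.35), and Slc35b4 is of middle span with 23732 bases (49.6). The merged exons were also long, with a median of 8670 bases against 4019, and only B630019K06Rik fell below the median.

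Other annotated genes overlap some of the 7. Without a known strand setting for the counting, reads of genes that overlap on opposite strands could be mixed. Wdr7 shares 117 exon bases with Txnl1, a thioredoxin-like gene on the other strand with 2480 to 4604 counts, and 134 with an antisense RNA. Slc35b4 shares 919 exon bases with antisense Gm13856, which had at most 9 counts in any library. Cnnm1 shares 124 and 25 exon bases with a pair of antisense genes. Phactr1 and Rnf157 contain other genes in their introns with 0 shared exon bases, and Vps8 and B630019K06Rik overlap none.

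Over the 6 libraries the deviations of the 7 genes correlated pairwise at r = 0.881 to 0.995 (21 pairs, median 0.948). Their choice fixes much of this, and WT 3 is 0 by construction. Among 11172 genes with a mean of at least 5 CPM, those most like the mean profile were Srgap1 (r = 0.9988), Lrrc24 (0.9979), Lifr (0.9976), Fnip2 (0.9968) and Stxbp4 (0.9966). Srgap1, which encodes a GTPase activator of the Slit-Robo route, was read at 16.2, 18.04 and 25.5 CPM in WT and at 8.76, 10.3 and 11.6 CPM in TG, a log2 fold change of −0.94. With so few points such values are common, and 538 genes (4.82%) exceeded r = 0.9. The gene most like each single one was Atp6ap1 for Phactr1 (r = 0.9998), Chpf2 for Vps8 (0.9998), 1110051M20Rik for Wdr7 (0.9985), Tmem106a for Cnnm1 (0.9989), Arnt for Rnf157 (0.9989), Scamp3 for Slc35b4 (0.9975) and Inpp4a for B630019K06Rik (0.9958). A like profile did not mean a like size. Atp6ap1 and Arnt had log2 fold changes of −0.16 and −0.17, against −1.11 for Phactr1 and −1.01 for Rnf157.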

How the data were processed

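The raw tables hold read counts per gene that the authors deposited, and per the submitters' processing notes CASAVA 1.8 and HISAT2 were used with GRCm38 (mm10). Which program counted the reads, with which annotation and strand setting, is not given in the sources used here. Per the file headers, the authors also deposited FPKM tables, used here for levels and gene names, and tables of normalized signal, read but not used for tests. The 2 sets of tables were joined on gene ID. No row was left out for lacking a gene name, and the 20913 rows without one took at most 0.00474% of a library's reads.

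Groups and tables come from the labels. Counts were tested with edgeR 4.0.16 in R 4.3.3 (expression filter by genotype, TMM scaling, quasi-likelihood F-test, terms for table and genotype), with Benjamini-Hochberg adjustment over all 16072 genes tested and a threshold of 0.05. DESeq2 1.42.0 and limma 3.58.1 (voom) were alternatives. The fit was tested on simulated data. Deviations are log2 CPM (prior count 2) minus the mean of the WT libraries of the same table, and SE is the log2 fold change divided by the root of F. Lists covered relatives and partners of each gene and markers of islet, acinar, duct, endothelial, stellate, immune, Schwann, fat and red blood cells.

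The 7 genes and all lists were chosen with earlier results of these data known. Named genes are the 7, their direct paralogs and complex partners, up to 3 of smallest p in the rest of each list, 5 genes of most similar profile overall and 1 for each of the 7, and those next to the limit of the rule. Genes that passed without TG 2 are named in the accounts of their lists, and were chosen after their values were seen. The interaction of table and genotype was fitted, but it is not given as a test for the 7 genes, since they were chosen on the differences it compares.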

Additional observations from a re-analysis of the deposited data

How the results depend on the processing

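The log2 fold changes of the 7 genes were negative in all 16 alternatives, from −1.69 to −1.31 for Cnnm1 and from −0.67 to −0.54 for Wdr7. The pattern below WT in every TG library held for 7 of 7 under each of 3 other scalings, chosen after seeing the data. The 7 genes were chosen on this contrast in these same libraries, so their choice nearly fixes both outcomes. Slc35b4 ranged from −0.81 to −0.63 when libraries were left out singly and was −0.66 with total-count scaling. The number of genes called was 0 in the fit as reported, 752 with DESeq2, 1672 with no low-count filter and 0 to 2188 with 1 library left out, the highest without TG 2. List genes called numbered 0, 4, 7 and 0 to 16 in the same order. Members differing between tables numbered 1, then 2 with DESeq2 and 2 with no low-count filter (Rnf157 and Cnnm1 in both), 0 with an acinar covariate and 0 to 1 with 1 library left out, where only leaving out TG 2 kept 1. The cause of these changes was not tested. The table difference of Vps8 was 0.053 with total-count scaling, 0.02 with the acinar covariate and −0.34 to 0.034 with 1 library left out. That of Wdr7 was −0.32 with the covariate and −0.013 to 0.22 with 1 left out, and that of B630019K06Rik 0.57 with the covariate and −0.048 to 0.26. Those of Cnnm1 and Slc35b4 were 1.796 and 1.27 with the covariate. Slc35b2 stood at 0.0016 with DESeq2, 0.0010 with limma-voom, 0.0018 with DESeq2-type size factors, 0.017 with upper-quartile scaling, 0.080 with total count, 0.019 with at least 20 counts in every library, 0.00066 with no table term, and −0.046 to 0.078 with 1 library left out. Dmxl1 was 0.030 and Mgrn1 0.054 with total count. With 1 library left out, Dmxl1 ran from −0.13 to 0.042, Mgrn1 from −0.13 to 0.048, Cnnm2 from −0.058 to 0.073, Cnnm4 from −0.14 to 0.16 and Slc35b1 from −0.084 to 0.18. No paired analysis was possible because the labels of the TG libraries carry no replicate number shared with WT.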

Other observations

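Gene span and change were weakly related over the 13993 tested protein-coding genes, and the sign of the relation differed between libraries. Spearman's rho between span and the deviation from WT was 0.10 in TG 1, −0.14 in TG 2 and 0.08 in TG 3. Genes are not independent replicates, and all share these libraries and their depth. When the genes were divided by span into 5 equal classes, the longest class (72746 to 2960900 bases), with Phactr1, Vps8, Wdr7 and Rnf157, had a median deviation of 0.12, −0.09 and 0.10 in TG 1, TG 2 and TG 3, and 14.9% of genes were below WT in every TG library. In the shortest class, which holds B630019K06Rik, the medians were −0.06, 0.04 and −0.03, and the share was 11.7%. The WT level (FPKM) had a rho of −0.32 with the deviation in TG 1 and −0.31 in TG 3, but −0.01 in TG 2.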
